A study of Mus musculus with 9 samples.

Results

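The genes described are the nuclear-encoded subunits of the mitochondrial respiratory chain and ATP synthase in the blood RNA of arthritic and control mice. They were chosen by symbol alone: names that start with Nduf (complex I), Sdha to Sdhd (complex II), Uqcr (complex III), Cox followed by a digit from 4 to 8 (complex IV) or Atp5 (complex V). This rule took 94 of the 20926 genes in the deposited table. Ndufa4 and its relative Ndufa4l2 carry complex I names but are counted here with complex IV, where the Ndufa4 protein is now placed. Of these, 8 Ndufaf genes encode assembly factors of complex I rather than subunits and Ndufb4c is annotated as a processed pseudogene. All mice were male DBA/1, with 3 libraries in each group, each taken as a separate mouse. They were 7 weeks old when the study divided them into groups, before immunization and irradiation, so they were older at sampling. The Ctrl mice were controls without arthritis, the CIA mice had collagen-induced arthritis raised by chick type II collagen in complete and then incomplete Freund's adjuvant, while CIA+THz animals were arthritic in this way and received 0.1 THz irradiation of the swollen ankles for 30 min per day over 14 days. The irradiation was given under isoflurane, and the sources do not say whether the other groups were anaesthetised or whether Ctrl mice received adjuvant, so those exposures cannot be told apart from the labels CIA and THz.

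Complexes I and II feed electrons from NADH and succinate to ubiquinone, complex III passes them to cytochrome c, complex IV reduces oxygen, and complex V uses the resulting proton gradient to make ATP. The core subunits carry the flavins, iron-sulfur clusters and catalytic sites, and most of the remaining nuclear subunits are small accessory proteins that stabilise or tune each complex. The nuclear genes supply every subunit of complex II and all but a few of the others, which come from mitochondrial DNA; the table held 0 symbols of mitochondrially encoded subunits, so only the nuclear side could be followed. Blood leukocytes differ in how much they use this pathway, with neutrophils relying mainly on glycolysis and lymphocytes and monocytes keeping more mitochondria, while mature red cells have none and their reticulocyte precursors lose theirs.

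The values are FPKM (fragments per kilobase of transcript, scaled to the mapped fragments of the library), divided here by a median-of-ratios factor per library that lay between 0.847 and 1.24. The table holds no counts, so the depth of each library is unknown and no counting error can be given. Each log2 fold change compares group means of log2(rescaled FPKM + 0.1), so low genes appear to change less than they did, and 90 of the 94 genes were among the 12366 tested by limma at a mean of at least 0.1. Unless stated otherwise a gene is said to rise or fall when its unadjusted p by limma is under 0.05; the smallest Benjamini-Hochberg adjusted p of any member in a comparison of 2 groups was 0.0644, so 0 members passed adjustment there, where 19 (0.154%), 0 (0%) and 13 (0.105%) of all genes did for CIA against Ctrl, CIA+THz against CIA and CIA+THz against Ctrl. The samples are labelled leukocyte but the methods describe total blood RNA, and erythroid Alas2 alone made up 11.4% to 16.7% of the summed FPKM of a library, while the leukocyte marker Ptprc was at 66.8 to 149.7 rescaled FPKM. The rescaling bears on direction. It lowered the median change of all genes in CIA+THz against CIA from 0.29 to 0.03 on the log2 scale and in CIA+THz against Ctrl from 0.33 to 0.04, and in CIA against Ctrl from 0.02 to -0.01. Values from FPKM as deposited are therefore given beside many of the results, and the plot of medians under both scalings shows each complex.

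**Figure D1:**
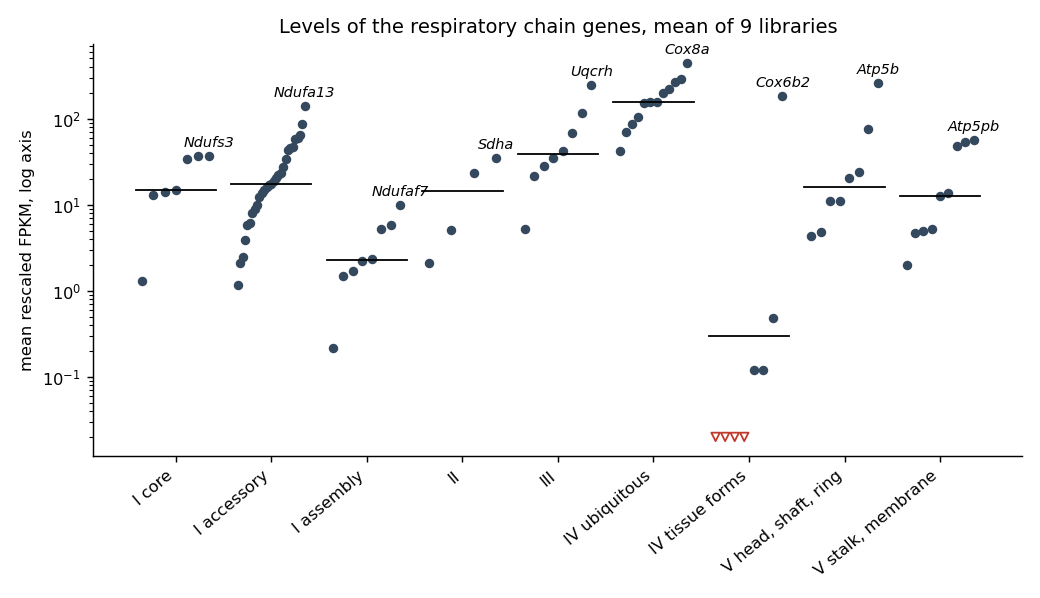
Mean rescaled FPKM over 9 libraries (vertical log axis) of the genes, grouped along the horizontal axis by complex and role and without the pseudogene; dots are genes, bars are medians of the genes above 0, the highest gene of each group is named, and open triangles at the bottom are the 4 genes listed at 0. The ubiquitous complex IV subunits lie highest, with Cox8a at 447.

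Levels per transcript length differed widely between genes whose proteins sit in the same complex. The 12 ubiquitous complex IV subunits had the highest median of any group, 154 rescaled FPKM, from 41.5 for Cox7a2 to 447 for Cox8a. The 8 complex III genes had a median of 38.4 and ran from 5.15 for Uqcrb to 246 for Uqcrh, the hinge protein beside cytochrome c1. The 36 complex I subunits had a median of 17.1, the 17 complex V genes 12.7 and the 4 complex II genes 14.3. Within complex I the core flavoprotein partner Ndufv2 (mean 1.29) and the accessory Ndufc1 (1.15) were near 1, whereas Ndufa13, also known as GRIM-19, stood at 139.6. The 8 assembly factors were low, with a median of 2.29.

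ATP synthase showed the same unevenness. Atp5b, the beta subunit of the catalytic head, was at 276, 307 and 232 rescaled FPKM in Ctrl, 289, 292 and 254 in CIA, and 206, 232 and 247 in CIA+THz. Its partner Atp5a1, the alpha subunit present in equal copy number in the enzyme, was between 67.2 and 86.0 in all 9 libraries. The ratio of Atp5b to Atp5a1 FPKM within a library therefore lay between 2.57 and 4.39. The 3 genes for the identical mature subunit c of the rotor ring, Atp5g1, Atp5g2 and Atp5g3, had means of only 3.66 to 12.1 in any group.

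Complex IV has pairs of genes for ubiquitous and tissue-restricted forms of the same subunit, and they gave a check of what blood expresses. Cox4i2 (lung and hypoxia form of subunit 4), Cox7b2 and Cox8c (testis forms) and Cox8b (heart and muscle form) were listed at 0 in all 9 libraries and were not tested. The muscle form Cox6a2 was between 0 and 1.67, Cox7a1 between 0 and 0.671, and Ndufa4l2, a hypoxia-induced relative of Ndufa4, was above 0 in 1 library at 1.08. Their ubiquitous counterparts Cox6a1, Cox7a2 and Ndufa4 were between 238 and 350.3, 29.3 and 61.3, and 124 and 195. Cox6b2, known as the testis form of subunit 6b, departed from this order. It was at 233, 214 and 184 in Ctrl, 255, 166 and 171 in CIA, and 140.1, 134 and 162 in CIA+THz, and its FPKM was 0.917 to 1.5 times that of Cox6b1. No stretch of 50 bases of its longest transcript occurs in the transcripts of another gene.

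Promoters of these genes are known for sites of NRF1, ETS-family factors such as GABP, and YY1. RefSeq promoters on GRCm38.p6, from 250 bases before to 50 bases after the start, were matched for 76 of the 94 genes and searched on both strands for the core letters of NRF1, CCGGAAG (ETS) and the core letters of YY1, those of NRF1 and YY1 being the capitals in the windows of Uqcrc1 and Ndufs7; no match of 1 motif overlapped a match of another. The NRF1 letters were in 7 of the 76 members (9.21%) against 1.07% of all 27025 genes with a promoter, the ETS letters in 19 (25.0%) against 9.93%, and the YY1 letters in 5 (6.58%) against 0.755%. Shown here are 30-base windows, written 5′ to 3′ on the gene's strand with the match in capitals, for members whose changes are described further on; a match on the opposite strand reads CTTCCGG for ETS.
Uqcrc1 (chr9:108936668-108936697, plus strand, NRF1): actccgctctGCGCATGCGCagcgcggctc
Atp5g2 (chr15:102671070-102671099, minus strand, NRF1): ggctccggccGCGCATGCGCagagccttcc
Ndufs3 (chr2:90904730-90904759, minus strand, ETS): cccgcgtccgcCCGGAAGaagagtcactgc
Ndufs8 (chr19:3912741-3912770, minus strand, ETS): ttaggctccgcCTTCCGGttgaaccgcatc
Sdhb (chr4:140961266-140961295, plus strand, ETS): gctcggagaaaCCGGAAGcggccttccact
Uqcrh (chr4:116075062-116075091, minus strand, ETS): agtatgccgcaCTTCCGGccaggtcgccgg
Uqcr11 (chr10:80406869-80406898, minus strand, ETS): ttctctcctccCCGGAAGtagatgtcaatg
Cox6b1 (chr7:30626124-30626153, minus strand, ETS): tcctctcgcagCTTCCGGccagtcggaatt
Cox8a (chr19:7217567-7217596, minus strand, ETS): tcagcgccggaaCTTCCGGctggttcggcc
Ndufs7 (chr10:80249464-80249493, plus strand, YY1): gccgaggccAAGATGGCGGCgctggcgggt
The set is shown because it holds members that were higher in the arthritic groups (Uqcrc1, Atp5g2, Ndufs3, Sdhb, Ndufs7) and members that were lower in CIA+THz (Uqcrh, Uqcr11, Cox6b1, Cox8a), and ETS letters are found in both. A match is a run of letters and was not tested as a binding site.

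In the moderated F-test of limma over the 3 groups, 30 of the 90 members (33.3%) reached an unadjusted p under 0.05, against 21.3% of all genes tested. The share was highest in complex IV, with 9 of 16, followed by complex III with 4 of 8 and complex V with 6 of 17, while complex I had 8 of 36 subunits and complex II 1 of 4. After Benjamini-Hochberg adjustment 5 members passed, against 2.53% of all genes: Cox4i1, Cox5b, Cox6c, Uqcrc1 and Cox7a2l, with adjusted p between 0.0252 and 0.0463. Without CIA+THz replicate 1 the count at an unadjusted p fell from 30 to 18, the lowest of the 9 fits that leave out a library.

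**Figure D2:**
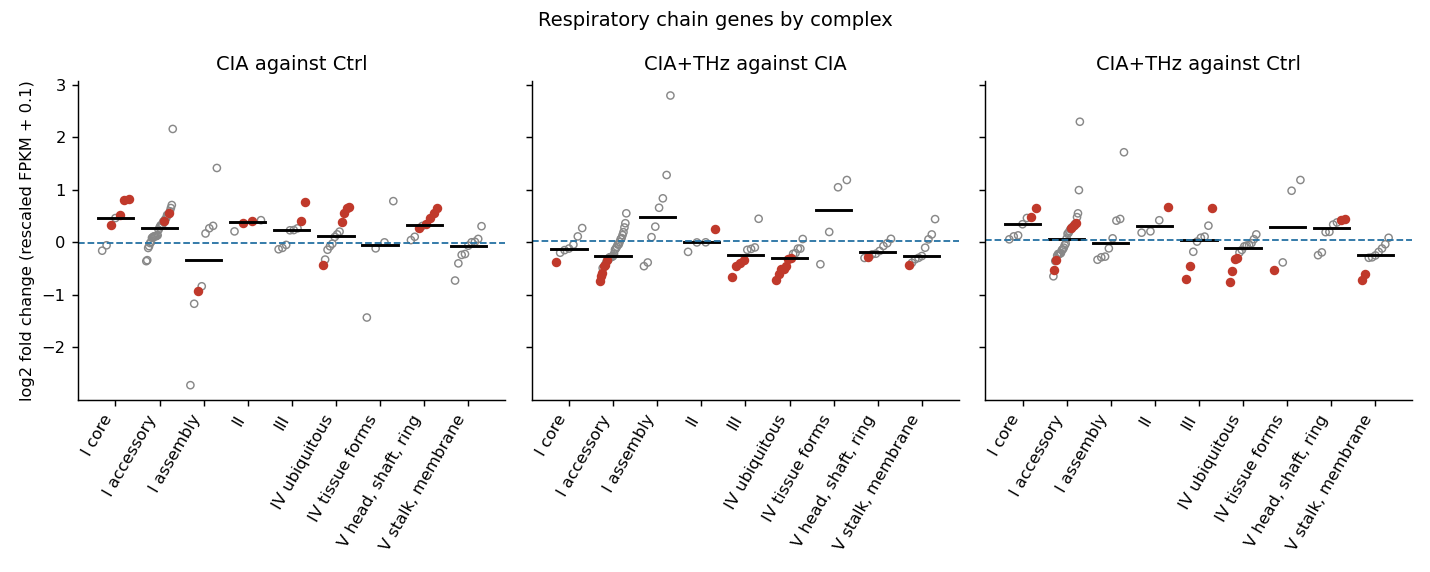
Each dot is the log2 fold change of a member other than the pseudogene (vertical axis) in 1 of 3 comparisons (panels), grouped by complex and role; filled dots had an unadjusted p under 0.05 by limma, black bars are group medians, and the dashed line is the median of all genes tested. In CIA against Ctrl 19 filled dots lie above 0 and 2 below, in CIA+THz against CIA 1 above and 20 below, all on rescaled FPKM.

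In CIA against Ctrl, which asks what arthritis did to these transcripts, most members were higher, core and accessory subunits among them. Of the 90 members, 21 (23.3%) passed against 17.3% of all genes. Of these 19 (21.1% of the members) rose, against 8.85% of all genes, and 2 (2.22%) fell, against 8.45%. Short and well-expressed genes rose more often than all genes. At a mean of at least 10, 41 of 165 other genes with transcripts under 1000 bases rose and 3 fell, beside 4 and 0 of 25 members. At 1000 to 2000 bases 157 of 649 other genes rose and 44 fell, beside 10 and 0 of 21 members. The median member change was 0.21 on the log2 scale beside -0.01 for all genes. Medians were 0.46 for the 7 complex I core subunits, of which 5 were higher, 0.28 for the 29 accessory ones, of which 24 were higher, 0.39 for complex II, 0.33 for the head, shaft and ring of complex V and 0.23 for complex III, whereas the 12 ubiquitous complex IV subunits had 0.13 and the stalk and membrane subunits of complex V -0.06. With FPKM as deposited 18 rose and 2 fell, against 8.26% and 6.94% of all genes. With a fold criterion of 0.67 added to the unadjusted p, 4 members (4.44%) passed, against 9.04% of all genes. Of the 21 calls, 11 held in each of the 6 fits that leave out a library.

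In CIA+THz against CIA, which asks what irradiation added to arthritis, most members that passed were lower on rescaled FPKM. Of the 90 members, 21 (23.3%) passed against 13.2% of all genes. Of these 20 (22.2% of the members) fell, against 7.33% of all genes, and 1 (1.11%) rose, against 5.89%. Short and well-expressed genes fell more often than all genes. At a mean of at least 10, 63 of 165 other genes with transcripts under 1000 bases fell and 2 rose, beside 11 and 0 of 25 members. At 1000 to 2000 bases 173 of 649 other genes fell and 14 rose, beside 6 and 1 of 21 members. The median member change was -0.16 beside 0.03 for all genes. The direction depends on scaling: with FPKM as deposited 7 rose and 4 fell, where 19.9% of all genes rose and 1.11% fell, and the median member change was 0.12 beside 0.29 for all genes. Relative to the median of all genes the members were 0.18 lower on rescaled and 0.17 lower on deposited FPKM. With the fold criterion 2 members (2.22%) passed, against 4.54% of all genes. Of the 21 calls 11 held in each fit that leaves out a library, and without CIA+THz replicate 1 the count was 13.

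In CIA+THz against Ctrl members passed in both directions. There were 20 calls (22.2% of the members) against 18.1% of all genes. Of these 9 (10%) rose, against 8.39% of all genes, and 11 (12.2%) fell, against 9.69%. These shares were near those of all genes. The 9 that rose were Ndufs3, Ndufs7, Ndufa9, Ndufb5 and Ndufb8 of complex I, Sdhb, Uqcrc1, and Atp5d and Atp5g2 of complex V. The 11 that fell were Cox6c, Cox6b1, Cox6b2, Cox7b and Cox8a of complex IV, Uqcrh and Uqcr11 of complex III, Ndufa1 and Ndufa3 of complex I, and Atp5l and Atp5mpl of complex V. With FPKM as deposited 30 (33.3%) rose and 3 (3.33%) fell, the 3 being Cox6c, Atp5mpl and Uqcrh, where 21.5% of all genes rose and 2.36% fell. With the fold criterion 3 members (3.33%) passed, against 7.88% of all genes. Without CIA+THz replicate 1 there were 12 calls and without Ctrl replicate 3 there were 28. This comparison shares its libraries with the other comparisons, so the 3 sets of changes are not independent of each other.

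**Figure D3:**
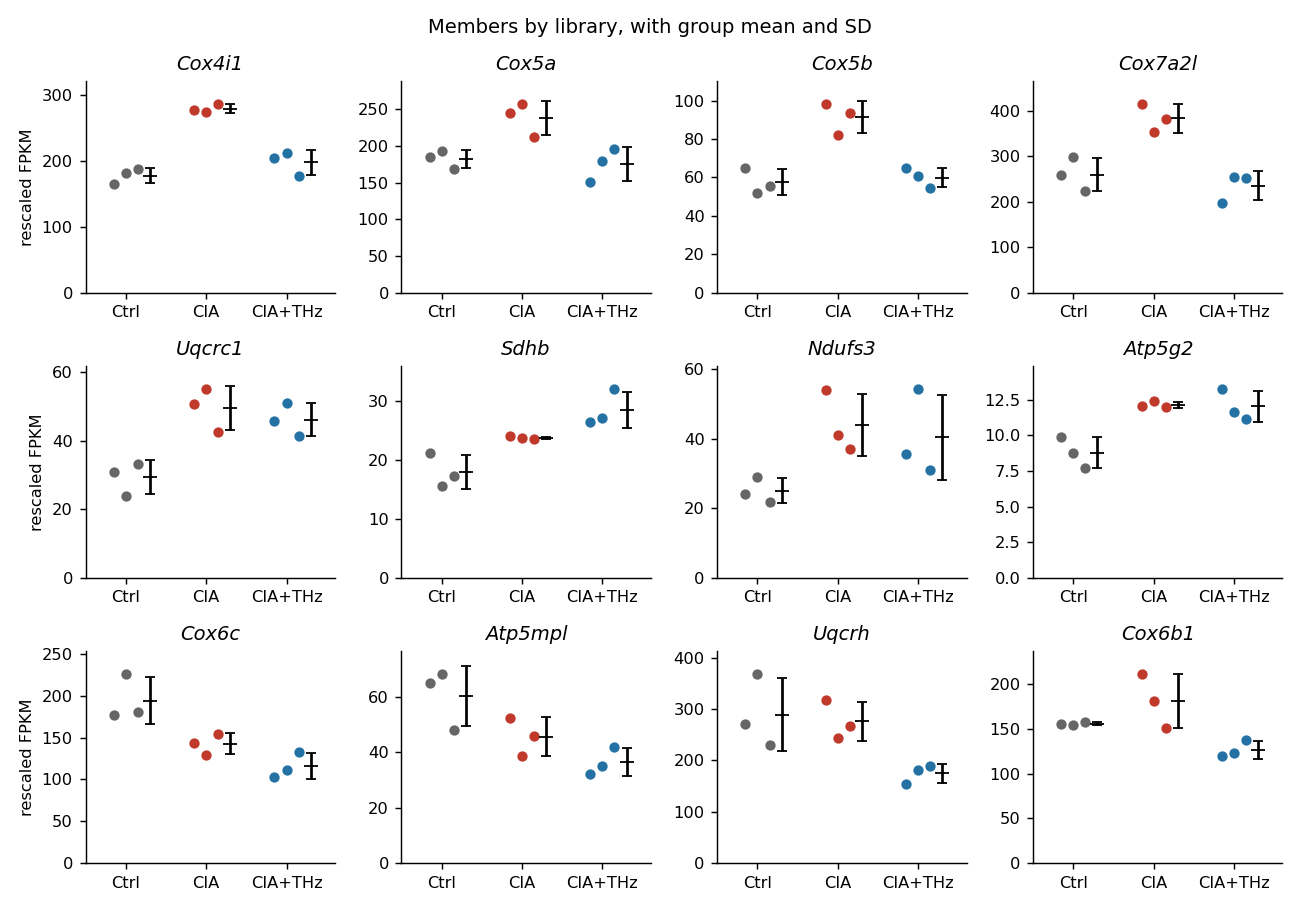
Rescaled FPKM (vertical axes from 0) of 12 members in the 3 Ctrl (grey), CIA (red) and CIA+THz (blue) libraries, with the mean and SD of each group at its right. The CIA values of Cox4i1, Cox5a, Cox5b and Cox7a2l lie above all libraries of the other groups, Uqcrc1, Sdhb, Ndufs3 and Atp5g2 are lowest in Ctrl, and Uqcrh and Cox6b1 are lowest in CIA+THz.

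Complex IV held members that rose in CIA against Ctrl, fell in CIA+THz against CIA and did not pass in CIA+THz against Ctrl. Cox4i1, the ubiquitous form of the regulatory subunit 4 (chromosome 8 of GRCm38, 120668222 to 120674207), was at 165, 182 and 188 rescaled FPKM in Ctrl, 278, 274 and 287 in CIA, and 204, 213 and 177 in CIA+THz. All CIA libraries exceeded all others. Its log2 fold change was 0.65 ± 0.11 (SE) for CIA over Ctrl (limma, adjusted p = 0.0644), -0.50 ± 0.10 for CIA+THz over CIA (adjusted p = 0.196) and 0.15 ± 0.11 for CIA+THz over Ctrl (adjusted p = 0.507). Across the 3 groups its adjusted p was 0.0252. Its exons overlap Emc8 on the opposite strand by 154 bases, and whether the authors counted by strand is not given in the sources used here.

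Cox5b, a subunit on the matrix side of complex IV, followed the same course. It was at 65.1, 52.1 and 55.6 in Ctrl, 98.4, 82.4 and 93.6 in CIA, and 64.7, 60.5 and 54.5 in CIA+THz, a change of 0.67 ± 0.13 and then -0.61 ± 0.11 on the log2 scale (adjusted p across the groups 0.0294 by limma). Reads of Cox5b may be shared, since 25.9% of the 50-base words of its longest transcript also occur in Gm11273. Cox7a2l, which links complexes III and IV into supercomplexes, was at 258, 297 and 223 in Ctrl, 415, 353 and 381 in CIA, and 198, 255 and 251 in CIA+THz. It rose by 0.57 ± 0.14 in CIA and changed by -0.71 ± 0.13 in CIA+THz against CIA, with no overlap between the groups; 17.7% of its words are shared with Gm6969. Cox5a, a matrix-side partner of Cox4i1, was at 185, 194 and 169 in Ctrl, 245, 258 and 213 in CIA, and 151, 179.7 and 196 in CIA+THz. On FPKM as deposited the fall in CIA+THz against CIA kept an unadjusted p under 0.05 for Cox5b (-0.33) and Cox7a2l (-0.43) but not for Cox4i1 (-0.22) or Cox5a (-0.17).

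Other small complex IV subunits were lower with each group or only in CIA+THz. Cox6c was at 177, 226 and 181 in Ctrl, 144, 129.8 and 155 in CIA, and 103, 111 and 133 in CIA+THz. It was the only complex IV subunit that fell in CIA against Ctrl, by 0.44 on the log2 scale (SE 0.14), and in CIA+THz against Ctrl it fell by 0.75 (SE 0.14, adjusted p = 0.0941 by limma). Cox6b1, which faces cytochrome c, was nearly constant in Ctrl at 155, 155 and 158, was 212, 181 and 151 in CIA, and 119, 123 and 138 in CIA+THz. Its change in CIA+THz against Ctrl, -0.30 ± 0.09, was 0.0032 with FPKM as deposited. Cox8a, the most abundant of these transcripts per length, was at 489, 517 and 439 in Ctrl, 504, 414 and 504 in CIA, and 365, 377 and 411 in CIA+THz, a change of -0.32 ± 0.11 against Ctrl that was -0.02 with FPKM as deposited. Cox6b2 fell by 0.53 (SE 0.13) in CIA+THz against Ctrl, or by 0.22 as deposited without passing. Cox6a1 changed by -0.14 ± 0.17, 0.06 ± 0.10 and -0.08 ± 0.15 in the 3 comparisons and passed in none, nor did Cox7a2, Cox7c or Ndufa4.

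In complex III the large core protein rose and the small hinge protein fell in CIA+THz against Ctrl. Uqcrc1, the core protein on the matrix side, was at 31.0, 23.8 and 33.2 in Ctrl, 50.7, 55.2 and 42.5 in CIA, and 45.9, 51.2 and 41.4 in CIA+THz, so that both arthritic groups lay above Ctrl with no overlap. It rose by 0.76 ± 0.17 in CIA and 0.66 ± 0.15 in CIA+THz against Ctrl, passed in every fit that left out a library of those pairs and kept both calls with FPKM as deposited (adjusted p across the groups 0.0452 by limma). Its partner Uqcrc2 was at 108, 137 and 82.3 in Ctrl, 139, 122 and 117 in CIA, and 109, 112 and 125 in CIA+THz, overlapping throughout. Uqcrh was at 269.6, 368 and 229 in Ctrl, 317, 243 and 267 in CIA, and 154, 181 and 189 in CIA+THz. It changed by -0.66 ± 0.13 in CIA+THz against CIA and -0.70 ± 0.18 against Ctrl, and with FPKM as deposited by -0.38 and -0.40, both still past the threshold. The small subunits Uqcr10, Uqcr11 and Uqcrq also fell in CIA+THz against CIA, by 0.45, 0.34 and 0.39, on rescaled FPKM only. Uqcrq had risen in CIA against Ctrl, by 0.40, a call that did not hold with FPKM as deposited. Uqcrfs1, the Rieske iron-sulfur protein, was between 25.3 and 33.2 in all libraries and passed in no comparison.

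In complex I the core subunits of the arm that carries electrons to ubiquinone rose in CIA. Ndufs3 was at 24.1, 29.0 and 21.9 in Ctrl, 54.1, 41.0 and 37.1 in CIA, and 35.7, 54.4 and 31.1 in CIA+THz, a rise of 0.80 ± 0.18 and 0.66 ± 0.22 against Ctrl; 35.8% of its words are shared with Gm12251 and Gm11927 and its exons overlap Kbtbd4 on the opposite strand, so its level is uncertain. Ndufs8 was at 9.20, 7.70 and 13.6 in Ctrl, 15.4, 18.4 and 19.3 in CIA, and 13.6, 15.9 and 11.8 in CIA+THz, a rise of 0.83 ± 0.23 in CIA. Ndufs7, which holds the last cluster before ubiquinone, rose by 0.52 ± 0.17 and 0.48 ± 0.16 in the 2 arthritic groups. The 3 subunits of the NADH-oxidising end did not pass. Ndufv1, which binds the flavin, changed by 0.46 ± 0.20, Ndufv2 by -0.16 ± 0.33, and Ndufs1, which was between 28.7 and 44.3 in all libraries, by -0.06 ± 0.19.

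The accessory subunits of complex I had a median change of 0.28 in CIA against Ctrl and -0.26 in CIA+THz against CIA, or 0.02 with FPKM as deposited. Ndufa6 and Ndufb5 rose in CIA, by 0.57 ± 0.17 and 0.41 ± 0.15. In CIA+THz against CIA 6 of the 29 fell, namely Ndufa1, Ndufa2, Ndufa3, Ndufa13, Ndufb6 and Ndufs6, while 0 rose by limma, and with FPKM as deposited 1 fell and 2 rose. Ndufa1, an X-linked membrane-arm subunit, was at 27.5, 29.0 and 20.2 in Ctrl, 31.1, 27.7 and 23.7 in CIA, and 14.4, 18.4 and 20.2 in CIA+THz, and its change of -0.64 ± 0.16 against CIA was -0.36 as deposited, still past the threshold. Ndufb6 was low, between 1.67 and 3.77, and its change of -0.74 ± 0.27 lost its call without any of 4 of the 6 libraries. The 8 assembly factors had a median of -0.33 in CIA against Ctrl, with 4 higher and 4 lower. In CIA+THz against CIA their median was 0.48, with 6 higher and 2 lower, and 0 passed by limma. With FPKM as deposited these medians were -0.30 and 0.75, and 1 rose in CIA+THz against CIA. Among the assembly factors Ndufaf4 fell in CIA, from 8.24, 6.10 and 7.62 to 5.16, 2.08 and 4.94, and was 6.86, 6.73 and 4.68 in CIA+THz; this change of -0.93 ± 0.37 lost its call with FPKM as deposited and without any of 4 of the 6 libraries, and was -0.52 without CIA replicate 2.

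Complex II, the only complex here that also belongs to the citric acid cycle, had all 4 genes higher in CIA than in Ctrl, of which Sdha and Sdhb passed, each in only 1 of the 6 fits that leave out a library. Sdhb, its iron-sulfur subunit, was the only member to rise in CIA+THz against CIA. It was at 21.2, 15.6 and 17.2 in Ctrl, 24.0, 23.7 and 23.6 in CIA, and 26.4, 27.1 and 32.1 in CIA+THz, and neighbouring groups did not overlap. The change was 0.67 ± 0.15 in CIA+THz against Ctrl, which held in each fit that leaves out a library, and 0.26 ± 0.11 against CIA, which held in 1 of 6 such fits and was 0.53 with FPKM as deposited. Sdha, the flavoprotein, was at 33.2, 24.9 and 35.1 in Ctrl, 38.7, 40.7 and 39.3 in CIA, and 36.6, 34.4 and 33.8 in CIA+THz, and its rise of 0.36 ± 0.15 did not pass with FPKM as deposited. The membrane anchors Sdhc, between 1.48 and 3.03, and Sdhd, between 4.51 and 6.0, changed by 0.42 ± 0.31 and 0.21 ± 0.20 in CIA and did not pass.

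In complex V the members that rose in CIA were in the head, shaft and ring. Of the 8 head, shaft and ring genes 5 rose in CIA against Ctrl, namely Atp5a1, Atp5c1, Atp5d, Atp5g2 and Atp5g3. Only Atp5d and Atp5g2 held in each fit that leaves out a library. Atp5c1 and Atp5g3 each lost the call in 4 of the 6 fits and Atp5a1 in 1. Of the 9 stalk and membrane genes 0 passed by limma (1 fell with FPKM as deposited). The difference between these classes was not tested. Atp5g2 shares 14.8% of its 50-base words with Gm10175, Gm10231 and Mir688. Atp5d, the delta subunit of the shaft, rose by 0.65 ± 0.17, and Atp5g2 was at 9.89, 8.79 and 7.69 in Ctrl, 12.0, 12.4 and 12.0 in CIA, and 13.3, 11.7 and 11.1 in CIA+THz. Atp5a1 was at 67.2, 70.0 and 68.4 in Ctrl and 86.0, 80.4 and 81.4 in CIA, a rise of 0.27 ± 0.09, while Atp5b changed by 0.04 ± 0.14. Atp5mpl, a small membrane subunit, was at 65.1, 68.4 and 48.0 in Ctrl, 52.6, 38.6 and 45.9 in CIA, and 32.1, 35.2 and 42.1 in CIA+THz, and fell by 0.72 (SE 0.17) in CIA+THz against Ctrl, or by 0.41 as deposited, past the threshold both times. Atp5l, the membrane subunit g, fell by 0.61 (SE 0.17) in that pair, and by 0.30 as deposited without passing.

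Ratios of 2 genes within a library do not depend on its scaling factor. The following 4 pairs were chosen after their values were seen and are given with no test. Each sets a member called higher in CIA than in Ctrl over a member called lower in CIA+THz than in Ctrl. A low ratio in Ctrl is therefore built into the choice, and how many pairs of genes separate in this way was not counted. Uqcrc1 over Uqcrh was 0.115, 0.0646 and 0.145 in Ctrl, 0.160, 0.227 and 0.159 in CIA, and 0.299, 0.282 and 0.219 in CIA+THz. Cox4i1 over Cox6c was 0.931, 0.805 and 1.04 in Ctrl, 1.93, 2.11 and 1.85 in CIA, and 1.99, 1.92 and 1.33 in CIA+THz. In both pairs every Ctrl library lay below every library of the arthritic groups. Atp5g2 over Atp5mpl was 0.152, 0.129 and 0.160 in Ctrl, 0.229, 0.322 and 0.261 in CIA, and 0.413, 0.331 and 0.265 in CIA+THz. Ndufs3 over Ndufa1 was 0.876, 1.00 and 1.09 in Ctrl, 1.74, 1.48 and 1.56 in CIA, and 2.48, 2.96 and 1.54 in CIA+THz. The same order held for these, with CIA and CIA+THz overlapping in all 4 pairs.

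**Figure D4:**
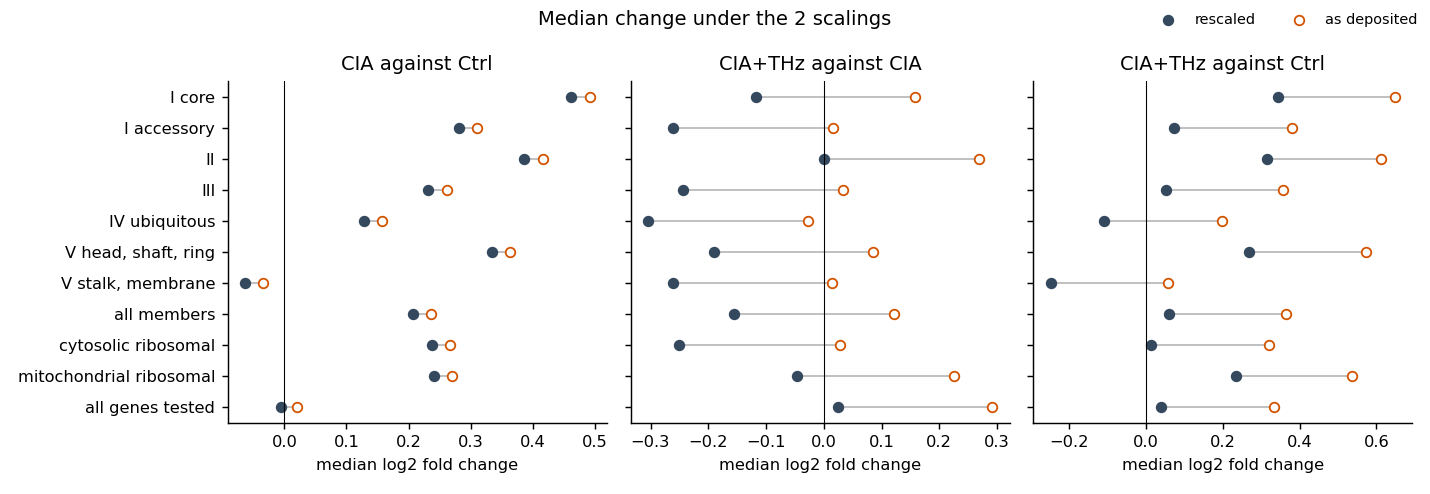
Median log2 fold change (horizontal axis) of groups of members, of both ribosomal protein lists and of all genes tested, in the 3 comparisons (panels), on rescaled FPKM (filled) and FPKM as deposited (open). In CIA against Ctrl the 2 scalings nearly coincide, and in the CIA+THz panels the deposited values lie to the right for members and for all genes alike.

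Libraries of a group were not uniform. The median deviation of the members from their own mean, on the log2 scale of rescaled FPKM, was -0.03, 0.04 and -0.16 in Ctrl, 0.28, 0.04 and 0.09 in CIA, and -0.06, 0.02 and -0.09 in CIA+THz, so that CIA replicate 1 stood highest and Ctrl replicate 3 lowest. Without CIA replicate 1 the median member change in CIA against Ctrl was 0.11, and without Ctrl replicate 3 that in CIA+THz against Ctrl was -0.075 in place of 0.06. As a share of all deposited FPKM, the members took 0.845%, 0.819% and 0.862% in Ctrl, 0.957%, 0.881% and 0.927% in CIA, and 0.949%, 0.944% and 0.900% in CIA+THz. On this measure every library of the arthritic groups was above every Ctrl library. The same held for mitochondrial ribosomal proteins (0.119% to 0.144% in Ctrl, 0.148% to 0.196% in the arthritic groups). It also held for cytosolic ribosomal proteins (6.52% to 7.29% and 7.84% to 8.97%). How many of all genes separate in this way was not counted. A share also depends on other genes, and Alas2 took 14.4% to 16.6% in Ctrl, 16.3% to 16.7% in CIA and 11.4% to 14.0% in CIA+THz.

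Other genes of the pathway were followed by lists. Of the 16 citric acid cycle genes 3 rose and 0 fell by limma in CIA over Ctrl, 1 rose and 1 fell for CIA+THz over CIA, and 4 rose for CIA+THz over Ctrl, with medians of 0.23, 0.04 and 0.29. With FPKM as deposited 5 rose and 0 fell for CIA+THz over CIA and 10 rose for CIA+THz over Ctrl. Counts of this and the following lists stand beside the shares of all genes. As deposited 19.9% and 21.5% of all genes rose in these 2 pairs, and 1.11% and 2.36% fell. On rescaled FPKM 8.85%, 5.89% and 8.39% of all genes rose in the 3 pairs, and 8.45%, 7.33% and 9.69% fell. The 20 genes of electron carriers and coenzyme Q synthesis had 2, 1 and 3 that rose and 0 that fell by limma, with medians of 0.35, 0.08 and 0.31, and as deposited 2 and 9 rose in the CIA+THz pairs. The 45 assembly factors outside the naming rule had medians of 0.01, 0.06 and 0.19, with 2, 3 and 5 that rose and 0, 1 and 2 that fell; as deposited 11 and 10 rose and 0 fell in the CIA+THz pairs. The 13 tested regulators of mitochondrial biogenesis had medians of -0.26, 0.14 and -0.06, with 1, 0 and 0 that rose and 1, 2 and 1 that fell, and the 9 mitophagy genes had 0.07, -0.27 and -0.21, with 0 that rose in any pair and 0, 2 and 1 that fell. Both lists depended on the scaling. As deposited the regulators had medians of 0.41 and 0.23 in the CIA+THz pairs, with 5 and 3 that rose and 0 and 1 that fell. Their median changed sign only in CIA+THz against Ctrl, while their calls in CIA+THz against CIA turned from lower to higher. The mitophagy medians changed sign in both pairs, to 0.00078 and 0.10, with 0 and 1 that rose and 0 that fell. Of the 6 genes for uncoupling and adaptation to oxygen 2, 0 and 2 rose and 1, 1 and 2 fell, with medians of 0.35, -0.08 and 0.20, while as deposited the medians were 0.19 and 0.51 in the CIA+THz pairs, with 1 and 4 that rose and 0 and 1 that fell.

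Both ribosomal protein lists were followed beside the respiratory genes. The 78 genes of the mitochondrial ribosome had medians of 0.24 for CIA over Ctrl, -0.05 for CIA+THz over CIA and 0.23 for CIA+THz over Ctrl, with 13, 3 and 9 that rose and 1, 5 and 3 that fell. As deposited its medians were 0.22 and 0.54 in the CIA+THz pairs, with 9 and 28 that rose and 1 and 0 that fell. The 84 tested genes of the cytosolic ribosome, which have no part in respiration, had medians of 0.24, -0.25 and 0.01, close to the 0.21, -0.16 and 0.06 of the members, with 22, 0 and 6 that rose and 1, 31 and 6 that fell. With FPKM as deposited the cytosolic list in CIA+THz against CIA had a median of 0.03 with 6 that rose and 8 that fell, and in CIA+THz against Ctrl 43 that rose and 2 that fell. The members and the cytosolic ribosomal list thus had similar medians in each pair on rescaled FPKM.

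**Figure D5:**
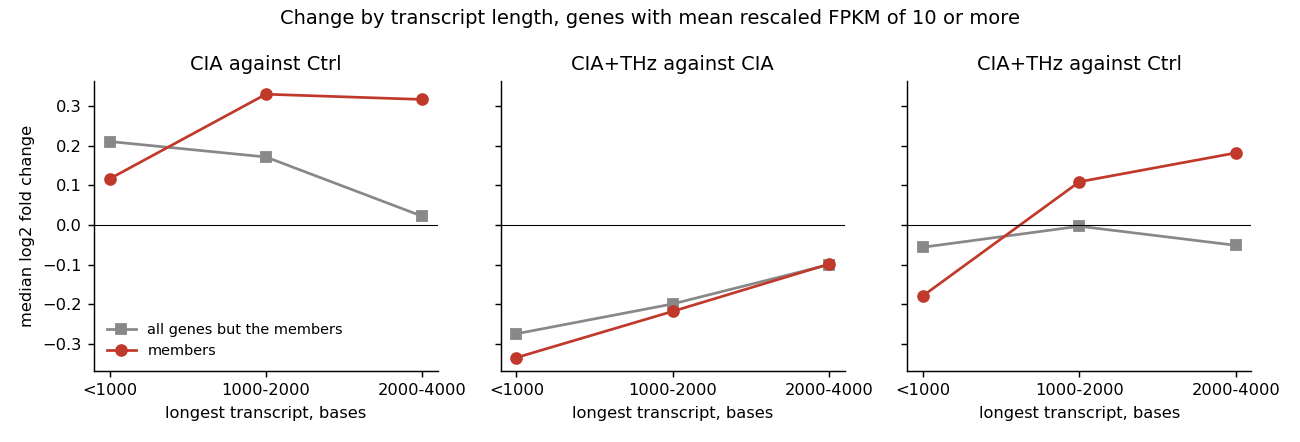
Median log2 fold change (vertical axis) of members (red) and of all other genes (grey) by the length of the longest transcript (horizontal axis), for genes whose rescaled FPKM averaged 10 or more, in the 3 comparisons. In CIA+THz against CIA both lines rise from short to long, from -0.34 to -0.10 for members and from -0.28 to -0.10 for other genes.

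Members and other genes were also compared by transcript length. The median longest transcript of the members was 1025.5 bases against 3351 for all genes tested. Among genes with a mean of at least 10, the 165 other genes with transcripts under 1000 bases had median changes of 0.21 for CIA over Ctrl, -0.28 for CIA+THz over CIA and -0.06 for CIA+THz over Ctrl, and the 25 members of that length had 0.12, -0.34 and -0.18. The 21 members of 1000 to 2000 bases had 0.33, -0.22 and 0.11, and the 649 other genes of that length 0.17, -0.20 and -0.00. The 10 members of 2000 to 4000 bases had 0.32, -0.10 and 0.18, and the 1686 other genes 0.02, -0.10 and -0.05. At 4000 bases or more the 3 members had 0.10, -0.04 and 0.29, and the 1600 other genes -0.15, 0.01 and -0.13. Across genes, which are not independent replicates, the Spearman correlation of log2 fold change with length was 0.09, 0.19 and 0.21 over the 90 members and -0.20, 0.16 and -0.09 over 12200 genes, of opposite sign in the comparisons with Ctrl. The part of length in these results was not tested.

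The makeup of the blood also differed between the groups, and in whole blood RNA fewer cells of a type and less RNA per cell cannot be told apart. Of 12 monocyte markers 9 rose in CIA against Ctrl and 8 fell in CIA+THz against CIA (4 with FPKM as deposited), and their summed rescaled FPKM was 3192 to 3561 in Ctrl, 5482 to 6071 in CIA and 3642 to 3934 in CIA+THz. In CIA+THz against Ctrl 8 of these markers rose and 1 fell (9 and 1 as deposited). Of 12 neutrophil markers 3 rose and 3 fell in CIA against Ctrl and 9 fell in CIA+THz against CIA (4 as deposited), with sums of 12541 to 21184, 14650.0 to 19223 and 10758 to 12200.3. Of 11 T cell markers 3 fell in CIA and 7 rose in CIA+THz against CIA (10 as deposited), with sums of 413 to 465, 321 to 373 and 421 to 563. Of 10 B cell markers 2 rose and 1 fell in CIA and 2 rose in CIA+THz against CIA (7 as deposited), with sums of 478 to 566, 522 to 666 and 611 to 799. Of 6 NK cell markers tested 4 fell in CIA and 2 rose in CIA+THz against CIA (3 as deposited), with sums of 141 to 182, 49.97 to 114 and 92.2 to 145. Of 9 platelet markers 1 rose and 1 fell in CIA and 6 fell in CIA+THz against CIA (as deposited 0 fell and 1 rose by limma), with sums of 4233 to 5179, 4041 to 5056 and 3379 to 4084. Of 16 erythroid markers 4 fell in CIA against Ctrl and 7 in CIA+THz against Ctrl (6 and 3 as deposited), with sums of 82996 to 128476, 101492 to 113292 and 56885 to 78942. Only the NK marker Klra8 was listed at 0 in all libraries. The part of these cells in the changes of the respiratory genes was not tested.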

How the data were processed

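Total blood RNA was sequenced by the authors (TruSeq kit, Illumina HiSeq, paired ends), and the authors deposited FPKM, 1 column per library, for 20926 gene symbols. The submitters' processing notes name bcl2fastq 2.0, HISAT2, StringTie, DESeq2 and the build mm10, without settings; the annotation and the strand setting are not given in the sources used here. The deposited values show no whole-read steps, so reads could not be recovered. Groups came from the sample labels. The labels number the libraries of a group but do not say whether blood was pooled, so each library was taken as a separate mouse.

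Libraries were rescaled with median-of-ratios factors taken from 10312 genes that were above 0 in all of them. Values were tested as log2(rescaled FPKM + 0.1) with limma 3.58.1 (lmFit, eBayes with trend) in R 4.3.3, over the 12366 genes with a mean of at least 0.1. An F-test used 9 libraries and each pair its own 6; calls are at an unadjusted p under 0.05, with Benjamini-Hochberg values beside them. The scripts were tested on simulated data. Shared sequence is the percent of 50-base words of a gene's longest GENCODE M21 transcript found in other genes' transcripts. Coordinates are GRCm38, from GENCODE by symbol and RefSeq for promoters. Promoters not matched include those of Atp5a1, Atp5mpl, Cox4i1, Cox4i2, Cox6a2, Cox6c, Cox8c, Ndufa2, Ndufa4l2, Ndufaf6, Ndufb4c, Ndufb9, Ndufs1, Sdhc, Uqcrb, Uqcrc2 and Uqcrq.

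The members, the lists and the rule for named genes were chosen with earlier results of these data known. The rule took, in each pair, the 4 largest and 4 smallest changes among members past the threshold with a mean of at least 1, the 5 smallest p across groups, the highest gene of each complex, the core subunits, the isoform families of complex IV and any member with an adjusted p under 0.05. Genes named beyond it were chosen after their values were seen, and some results are not reported here. The alternatives tried were FPKM as deposited, factors without erythroid, ribosomal and member genes, a pseudocount of 1, a minimum mean of 1, no filter, no trend, a replicate block, all 9 libraries in a fit, leaving out each library, members without assembly factors and the pseudogene, adjusted p, analysis of variance of the linear values, and the study's fold criterion of 0.67 on the log2 scale.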

Additional observations from a re-analysis of the deposited data

How the results depend on the processing

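Without limma's trend the members past an unadjusted p under 0.05 numbered 19 across the 3 groups (30 with it), 12 for CIA over Ctrl, 13 for CIA+THz over CIA and 13 for CIA+THz over Ctrl. With adjusted p these counts were 5, 0, 0 and 0, and with the fold criterion of 0.67 the pairs had 4, 2 and 3. With FPKM as deposited there were 11 in CIA+THz against CIA (7 higher, 4 lower, in place of 1 and 20) and 33 in CIA+THz against Ctrl (30 and 3 in place of 9 and 11), and the median member change was 0.12 and 0.37 in these pairs; Cox6b1 in CIA+THz against Ctrl was 0.0032. Leaving out each library gave 18 to 31 members across the groups, 16 to 22, 13 to 23 and 12 to 28 in the pairs, and medians of 0.11 to 0.25, -0.21 to -0.095 and -0.075 to 0.086, the last also -0.0036 without CIA+THz replicate 2. The other alternatives tried stayed within 1.5 times these counts and kept the sign of the medians, with 21 members in the analysis of variance on linear values. Of 43 named changes past the threshold, 15 kept their direction but no longer passed as deposited, 1 more (Cox6b1) changed sign and did not pass, and 15 no longer passed without the trend. Same-numbered libraries did not deviate together (correlations from -0.05 to 0.03, and -0.03 to 0.06 for libraries of other numbers). No pairing by number was seen, but shared handling by number was not tested. The replicate block gave 26, 19, 15 and 21 members. Depth is unknown, so the counting error of low genes such as Ndufv2 and Sdhc cannot be given.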
